A study of Helianthemum marifolium subsp. andalusicum and Helianthemum marifolium subsp. marifolium and Helianthemum marifolium subsp. molle with 16 samples.

Results

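Adult leaves of Helianthemum marifolium subsp. andalusicum were compared with adult leaves of subsp. molle, using poly-A RNA sequencing libraries. The comparison took 8 of the 16 libraries of the series: the 4 of andalusicum and the 4 of molle. The other 8 libraries, 4 of marifolium and 4 of origanifolium, entered only an alternative fit and serve to place the differences. No treatment, mutant or transgene separates the groups, which differ by subspecies alone in their labels. All plants were raised from abraded seed, potted in the same mixture of soil, sand and perlite, kept under the same greenhouse regime in natural daylight, and sampled at day 446 after sowing from leaves near the shoot tip. The title of each library holds a code, andal260 for andalusicum 1 and 3, andal261 for andalusicum 6 and 8, molle254 for molle 22 and 25, and molle256 for molle 27 and 29. The labels do not explain the codes. They also do not state that each library came from a separate plant, so each p-value refers to library-to-library spread, which may be partly technical.

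Helianthemum marifolium is a dwarf shrub of the rockrose family, and its subspecies are closely related plants. Plants of such subspecies raised side by side share their surroundings, so that their leaf RNA can be compared without the growing site as a difference. No genome guided the counting: reads were counted on clusters of transcripts assembled from the reads themselves. In an assembly of this kind, diverged alleles, gene copies and splice forms of a gene can end up in separate clusters, and a transcript that is too different in sequence may be counted on another cluster. In whole leaves, fewer cells of a type and less RNA per cell cannot be told apart.

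The series names the study of adaptive mechanisms as its aim, and the comparison asks which leaf transcripts differ in level between these 2 subspecies. Clusters carry no gene names in the files, so their functions are not described, the leaf label could not be set against marker genes, and identifiers are given for 4 clusters only. Of 100462 clusters, 35414 had at least 10 counts in at least 4 of the 8 libraries and were tested. These held between 97% and 98.9% of the counts of each library. Just inside that limit, 4247 clusters reached 10 counts in exactly 4 libraries, with a median level of 0.637 CPM (counts-per-million, scaled by the library's total). Just outside it, 5379 clusters reached 10 counts in 3 libraries, with a median of 0.413 CPM. Library totals were 28870265, 31038919, 26934329 and 32678473 counts in andalusicum, against 34121011, 26908113, 33286667 and 28743566 counts in molle. The totals of the subspecies overlapped. A cluster without counts can have had a level of up to 0.0879 CPM in the deepest of the 8 libraries and up to 0.111 CPM in the shallowest. These limits, set at 3 counts, cover counting error only, because the reads carry no molecular identifiers.

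Of the 35414 clusters tested, 630 differed between andalusicum and molle, 392 of them (1.11% of those tested) higher and 238 (0.672%) lower in andalusicum. A cluster was called at a Benjamini-Hochberg adjusted p under 0.05 in edgeR's quasi-likelihood test, and the calls made up 1.78% of the clusters tested. The calls fall into a pair of classes that have to be read apart. In the first class, 34989 clusters had at least 1 count in each subspecies, and 300 of them were called, or 0.857%. In the second class, 425 clusters had 0 counts in all 4 libraries of a subspecies. The limit on low counts then requires at least 10 counts in each library of the other subspecies, so these clusters had to differ. They supplied 330 of the 630 calls, or 52.4%, and those calls are given as a description that supports nothing.

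The second class also bears on the first. The clusters at 0 on a whole side carry small p-values by construction, which loosens the adjusted threshold for every other cluster. With those 425 clusters left out of the fit, 97 of the 34989 clusters with counts on both sides were called in place of 300, or 0.277%, with 53 higher and 44 lower in andalusicum. Adjusting over the 34989 alone, a choice made after the data were seen, also gave 97. All 97 were among the 300. At an unadjusted p under 0.05, 4161 of the 34989 clusters passed.

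Among the clusters with counts in both subspecies, 170 were higher in andalusicum, or 0.486% of those tested, and 130 were lower, or 0.372%. The called clusters differed by a median of 4.12 on the log2 scale in size, against 0.54 over all 34989 clusters. A call favours a large change, so this contrast follows from the choice of clusters and is a description. In clusters with at least 10 counts in all 8 libraries, the median was 2.37 over the 143 called and 0.37 over all 21607. The clusters higher in andalusicum had a median log2 change of 4.84 and those lower in andalusicum a median of -3.64. The sizes ran from 0.91 to 10.77, with 56 clusters under 2 and 136 over 5. On the side where it was higher, the median called cluster reached 16.4 CPM, and 27 called clusters exceeded 100 CPM there, 14 of them in andalusicum and 13 in molle.

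**Figure D1:**
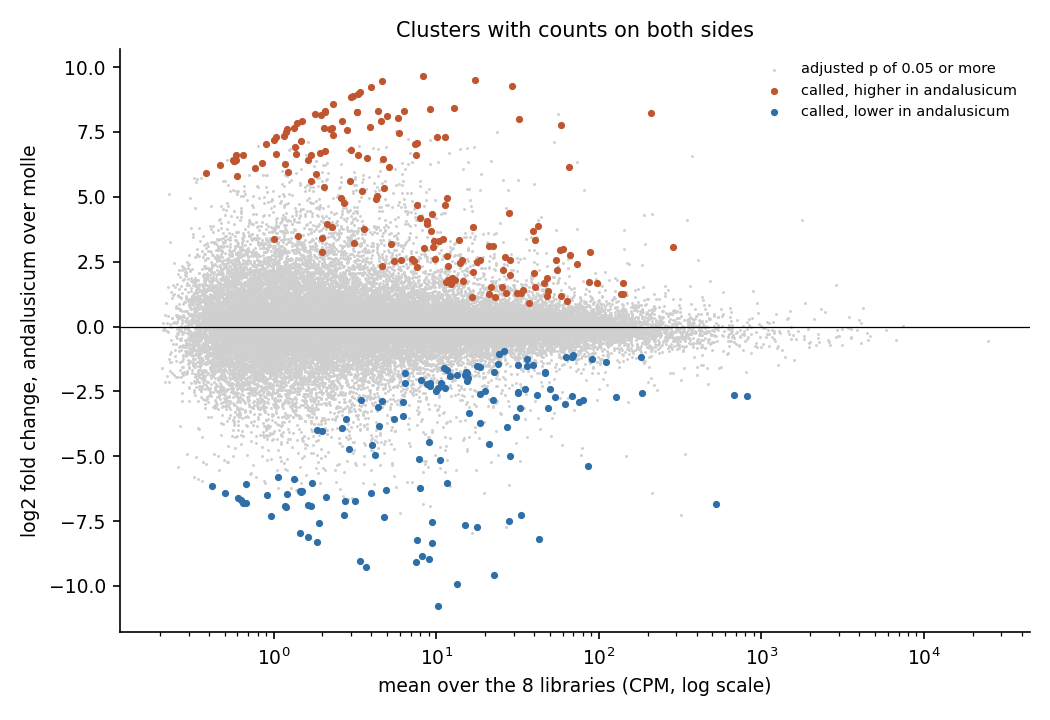
Log2 fold change of andalusicum over molle (vertical axis) against the mean over the 8 libraries in CPM (horizontal axis, log scale) for the 34989 clusters with counts in both subspecies. Orange points are the 170 clusters called higher in andalusicum, blue points the 130 called lower, and grey points those not called; calls with small changes, under 2 on the log2 scale, sit at higher levels.

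How much RNA these clusters represent can be read from their summed levels. The 170 clusters higher in andalusicum summed to 5761 ± 1303 CPM in andalusicum and 1010 ± 85.6 CPM in molle (SD, n = 4 each). The 130 clusters lower in andalusicum summed to 1417 ± 98.6 CPM in andalusicum and 8226 ± 667 CPM in molle. The first set thus made up 0.576% of the counts in andalusicum and the second 0.823% of those in molle. These sums follow from the choice of called clusters and are a description.

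The share of clusters called varied with the level. It was 0.147% among clusters with a mean under 0.5 CPM, 0.39% between 0.5 and 1 CPM, and between 0.834% and 1.13% from 1 to 100 CPM. Above 100 CPM, 12 of 1675 clusters were called, or 0.716%. Clusters at low levels spread more widely: the median size of change over the tested clusters was 0.86 on the log2 scale under 0.5 CPM and 0.28 between 50 and 100 CPM.

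The calls also differ in how well the lower side is measured. In 21607 clusters every one of the 8 libraries held at least 10 counts, and 143 of these were called, or 0.662%, with a median change of 2.37 in size on the log2 scale. Of these, 73 were higher in andalusicum, or 0.338%, and 70 lower, or 0.324%. The other 157 of the 300 called clusters were short of 10 counts in at least 1 library of the lower side, so that they passed the limit on low counts only through the side where they were high. Their calls are therefore a description, as in the second class. At the other end, 120 clusters had 1 to 3 counts in all over the 4 libraries of the lower side, and 69 of them were called, 46 higher and 23 lower. Between these, 46 of 385 clusters with more than 3 counts but no library at 10 on the lower side were called, as were 42 of 12877 clusters with at least 1 lower-side library at 10. Among the 97 calls left without the clusters at 0 on a side, the 4 groups held 48, 24, 14 and 11 clusters in the order given. A cluster with 1 to 3 counts on a side is close to the second class, and its fold change is poorly bounded.

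In all 300 called clusters the 4 libraries of andalusicum lay beyond the 4 of molle. Over all 34989 clusters, 1977 were separated in this way with andalusicum higher, or 5.65%, and 1291 with andalusicum lower, or 3.69%, so most separated clusters were not called. The gap between the nearest libraries of the subspecies had a median of 5.22-fold over the called clusters, ran from 1.01-fold to 275-fold, and reached 10-fold in 118 clusters. In 17 clusters it was under 1.5-fold. The clusters were called on these same libraries, and 157 of the 300 passed the limit on low counts only through their higher side. The separation and the gaps are therefore a description.

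The count of calls depends on every library. Without andalusicum 1, 3, 6 or 8 in turn, 105, 125, 83 and 138 clusters with counts on both sides were called, and without molle 22, 25, 27 or 29 there were 128, 92, 153 and 130, all with 1 library fewer to estimate the spread. Without andalusicum 8 the split turned, with 61 higher and 77 lower in andalusicum, while the other 7 settings had more higher than lower. The split was also near even, with slightly more lower, in limma voom with a random block for the code (96 higher, 98 lower) and with all 16 libraries in the fit (111 higher, 114 lower). In all, 58 of the 300 clusters were called in every one of these 8 fits and 99 in none. With the libraries of each code summed, leaving 2 sums per subspecies, 0 clusters of either class passed the edgeR test, although 3007 of the clusters with counts on both sides had an unadjusted p under 0.05.

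The clusters described singly below were taken by one criterion: a call, at least 1 CPM on the higher side, counts on both sides and no overlap between the subspecies. Of those, the 5 with the smallest p and the 5 with the largest change were taken in each direction. Among the 10 with the smallest p, 5 in each direction, 7 had at least 10 counts in all 8 libraries. Each of these 7 kept its call in 18 of 19 other edgeR, DESeq2 or limma fits. The exception was the fit on the summed libraries of each code, with adjusted p-values of 0.175 to 0.212, and the highest adjusted p in any other fit was 0.0197. For clusters that passed the limit only through their higher side, values are given without a p.

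Cluster-3823.44141 was the cluster higher in andalusicum with the smallest p, and its transcript is 2391 nt long. Its level was 73.2, 64.4, 50.7 and 46.6 CPM in andalusicum 1, 3, 6 and 8, against 0.0879, 0, 0.180 and 0.0696 CPM in molle 22, 25, 27 and 29. Every andalusicum library stood more than 100 times above the highest molle library, and the 4 molle libraries together held 11 counts. The fitted log2 fold change was 9.25. The cluster passed the limit on low counts only through andalusicum, so its rank by p is a description. The 4 marifolium libraries lay between 0 and 0.232 CPM, near those of molle. In origanifolium the cluster was at 3.38, 0.614, 0.874 and 0.531 CPM, above every molle library and far under every andalusicum library.

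The cluster with the second smallest p in that direction had counts in every library. It was at 89.5, 68.5, 96.6 and 64.7 CPM in andalusicum, against 5.48, 4.13, 7.45 and 3.27 CPM in molle. The groups were well apart, with a log2 fold change of 3.88 ± 0.30 (SE; edgeR, Benjamini-Hochberg adjusted p = 0.00204). The other subspecies lay between them, at 16.6 ± 7.61 CPM in marifolium and 30.8 ± 31.9 CPM in origanifolium (SD, n = 4 each), where origanifolium 31 reached 75 CPM and overlapped andalusicum.

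The third was at 74.8, 143, 102 and 94.5 CPM in andalusicum and at 12.8, 11.3, 14.2 and 12.6 CPM in molle. Its log2 fold change was 2.96 ± 0.27 (edgeR, Benjamini-Hochberg adjusted p = 0.00363). Andalusicum stood alone here: marifolium averaged 13.5 ± 7.26 CPM and origanifolium 14.2 ± 4.58 CPM, with all 8 of those libraries under the lowest andalusicum library. The fourth averaged 38.3 ± 13.8 CPM in andalusicum and 4.11 ± 0.689 CPM in molle, with 1.48 ± 1.24 CPM in marifolium and 13.3 ± 6.18 CPM in origanifolium. Its 4 andalusicum libraries, between 22.4 and 55.9 CPM, were above all 12 others. The fifth, with 10 counts in molle 22 and fewer in the other molle libraries, was low in every subspecies but andalusicum, which averaged 8.31 ± 1.93 CPM against 0.259 ± 0.0326 CPM in molle, 0.0158 ± 0.0317 CPM in marifolium and 0.0078 ± 0.0156 CPM in origanifolium. In the marifolium and origanifolium libraries it had 2 and 1 counts in all, against 32 in molle.

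The 5 largest fitted changes upward, of 9.22 to 9.67 on the log2 scale, include Cluster-3823.44141, and the other 4 had between 1 and 5 counts over the 4 molle libraries. For a cluster with 1 molle count and 17.3, 5.44, 9.58 and 4.74 CPM in andalusicum, the ratio of andalusicum to molle over the summed libraries was 1113, with an exact 95% counting interval of 199 to 44001. For another with 1 molle count and 4.54, 4.86, 14.0 and 8.48 CPM in andalusicum, the ratio was 964, with an interval of 173 to 38104. The order of magnitude of the ratio is thus not known for either cluster. These intervals, here and below, cover counting error only and leave out the spread between libraries. The cluster ranked first by change was uneven, at 0.831, 0.677, 12.8 and 51.8 CPM in andalusicum 1, 3, 6 and 8, so that both libraries of code andal260 were far under both of andal261. It had 2 counts in molle, for a ratio of 1073 with an interval of 297 to 8865, and 0 counts in all marifolium and origanifolium libraries. The remaining one, at 49.0, 9.15, 42.3 and 38.0 CPM in andalusicum and 0, 0, 0.150 and 0 CPM in molle, had all its 5 molle counts in molle 27.

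**Figure D2:**
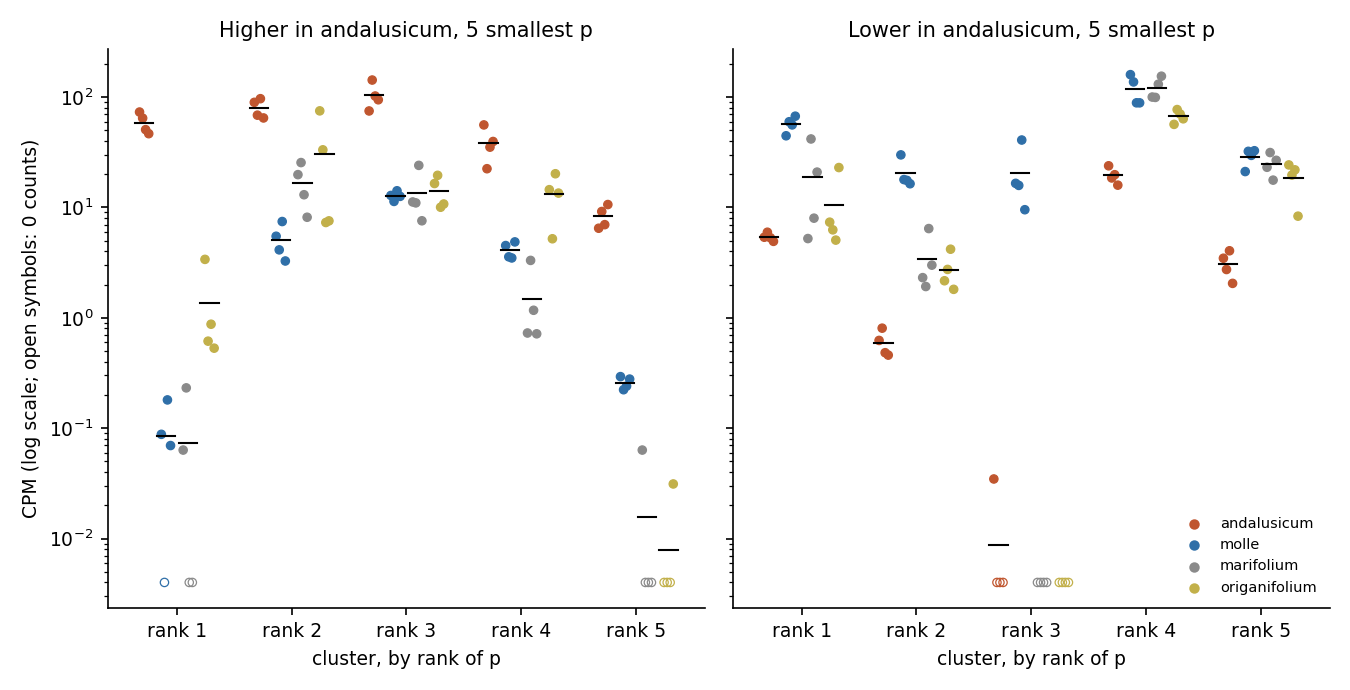
Level in CPM (log scale) of the 5 clusters with the smallest p that were higher in andalusicum (left) and lower in andalusicum (right), by rank of p. Each point is a library, black bars are means over the 4 libraries, and open points drawn at the bottom stand for 0 counts. In all 10 clusters the 4 andalusicum and 4 molle libraries are separated, while marifolium and origanifolium fall near one, near the other or between them.

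Among clusters lower in andalusicum, Cluster-3823.53917 had the smallest p. It was at 5.37, 5.96, 5.31 and 4.93 CPM in andalusicum, against 44.6, 59.8, 55.9 and 67.1 CPM in molle. The andalusicum libraries were nearly level with one another, and the lowest molle library was more than 7 times above the highest of them. The log2 fold change was -3.49 ± 0.25 (SE; edgeR, Benjamini-Hochberg adjusted p = 0.00197; 0.00256 with the clusters at 0 on a side left out), and the adjusted p was 0.175 with codes summed and at most 0.0183 in the other fits. Marifolium spread across the gap, at 5.22, 41.7, 7.99 and 20.9 CPM in marifolium 12, 15, 17 and 18. Origanifolium was at 7.35, 6.26, 5.06 and 23.0 CPM, so that 3 of its libraries were near andalusicum.

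The second cluster in this direction, with a transcript of 718 nt, was at 0.623, 0.805, 0.483 and 0.459 CPM in andalusicum, against 29.9, 17.9, 17.6 and 16.4 CPM in molle. Molle 22 stood above the other molle libraries, and all 4 were more than 20 times above andalusicum. The log2 fold change was -5.15 ± 0.38 (edgeR, Benjamini-Hochberg adjusted p = 0.00197). Marifolium at 3.42 ± 2.06 CPM and origanifolium at 2.73 ± 1.04 CPM were above every andalusicum library and below every molle library.

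The third, which also had the largest change among called clusters with counts on both sides, was found almost only in molle. It was at 0.0346, 0, 0 and 0 CPM in andalusicum, a single count in andalusicum 1, against 16.5, 15.8, 40.8 and 9.53 CPM in molle. All 8 marifolium and origanifolium libraries were at 0. The summed ratio of molle to andalusicum was 2547, with an exact 95% counting interval of 457 to 100620. The fourth and the fifth were expressed in every library, and all 12 libraries of the other subspecies lay above all 4 of andalusicum. The fourth was at 23.8, 18.5, 19.8 and 15.9 CPM in andalusicum, against 160, 137, 88.7 and 88.6 CPM in molle, with a log2 fold change of -2.68 ± 0.24 (edgeR, Benjamini-Hochberg adjusted p = 0.00363). Marifolium averaged 121 ± 26.7 CPM and origanifolium 66.8 ± 8.79 CPM for it. The fifth averaged 3.07 ± 0.868 CPM in andalusicum and 28.9 ± 5.35 CPM in molle, with 24.7 ± 5.80 CPM in marifolium and 18.5 ± 7.06 CPM in origanifolium.

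Of the other 4 clusters with the largest changes downward, 3 had 3 counts or fewer in andalusicum. A pair of them was at 0 in all marifolium and origanifolium libraries and even across molle, at 17.5, 37.0, 26.7 and 25.6 CPM in one and 11.7, 18.2, 13.3 and 17.0 CPM in the other. Each had 3 counts in andalusicum, all from andalusicum 3, and the ratios of molle to andalusicum were 1042 (interval 356 to 5053) and 590 (interval 201 to 2861). A further one, at 0.0346, 0.193, 0 and 0 CPM in andalusicum against 40.5, 23.5, 45.6 and 70.9 CPM in molle, was also expressed in every marifolium and origanifolium library, between 4.81 and 87.1 CPM. All 12 libraries of the other subspecies thus lay above those of andalusicum, and the fitted log2 fold change was -9.56. The last had 1 count in andalusicum against 12.2, 13.5, 1.26 and 2.71 CPM in molle, so that both libraries of code molle254 were above both of molle256.

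The called clusters with the highest CPM, not corrected for length, were looked up after their values had been seen. The one highest in andalusicum was at 729, 330, 615 and 406 CPM there, against 64.8, 53.5, 83.3 and 27.2 CPM in molle, with a log2 fold change of 3.08 ± 0.38 (edgeR, Benjamini-Hochberg adjusted p = 0.0116). It was higher still in origanifolium 31, at 1466 CPM. Its adjusted p was 0.0512 with all 16 libraries in the fit, the highest of 15 alternatives. Those 15 leave out the code sums, the sums by assembler gene name and the other filters on low counts. With codes summed, 0 clusters were called. The one highest in molle was at 194, 300.1, 129 and 302 CPM in andalusicum, against 1672, 1287, 1053 and 1638 CPM in molle, with a log2 fold change of -2.66 ± 0.37 (edgeR, Benjamini-Hochberg adjusted p = 0.0162). Among the 15 alternatives its call was lost without andalusicum 1 and with all 16 libraries in the fit, with an adjusted p of up to 0.115. With codes summed this call was lost too. A marifolium library, marifolium 15, reached 1617 CPM and an origanifolium library, origanifolium 38, 1341 CPM, while the other 6 of those subspecies lay between 155 and 368 CPM. Each of these subspecies thus held 1 library within the range of molle.

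Some called clusters were linked to others by the names that the assemblers gave. Clusters were linked if they shared an assembler gene name, directly or through further clusters. Of the 300 called clusters, 81, or 27.0%, were linked to another cluster, tested or not, against 21.8% of all tested clusters. In 16 of the 81 a linked cluster was called in the same direction. The matching share over all tested clusters with a link was not computed, so this count is a description. In 1 pair of linked clusters with counts on both sides the calls went in opposite directions. The pair consists of Cluster-3823.53917 and a cluster linked to it, and was picked out after the values were seen. The linked cluster was at 38.2, 43.0, 45.9 and 45.0 CPM in andalusicum, against 7.80, 12.9, 5.83 and 8.87 CPM in molle. It was higher in andalusicum by 2.18 ± 0.30 on the log2 scale (edgeR, Benjamini-Hochberg adjusted p = 0.0149). Its adjusted p was at most 0.0467 over the same 15 alternatives, which leave out the code sums, gene-name sums and other filters. Set together, the linked cluster held 87.7%, 87.8%, 89.6% and 90.1% of the pair's CPM in andalusicum and 14.9%, 17.8%, 9.44% and 11.7% in molle. The sum of the pair was 48.4 ± 3.35 CPM in andalusicum and 65.7 ± 10.8 CPM in molle (SD, n = 4 each), with every andalusicum library under every molle library. The sum thus differed far less than either cluster, and reads may have been divided between the pair by similarity of sequence, which was not tested.

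Marifolium and origanifolium held both forms of the pair. The linked cluster held 90.4%, 22.6%, 84.4% and 63.0% of the pair in marifolium 12, 15, 17 and 18, and 87.3%, 89.1%, 88.7% and 54.3% in origanifolium 31, 33, 38 and 39. Marifolium 15 was close to the molle libraries, 5 libraries were close to those of andalusicum, and marifolium 18 and origanifolium 39 were in between. The sum of the pair stayed at 54.0 ± 2.11 CPM in marifolium and 52.6 ± 6.41 CPM in origanifolium.

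**Figure D3:**
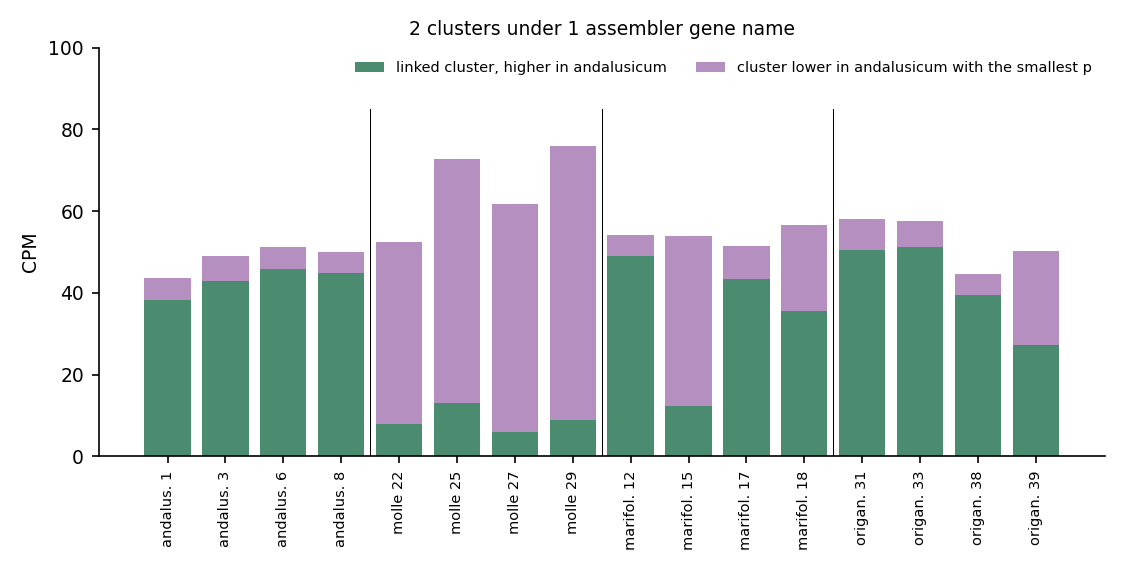
Level in CPM of 2 clusters that share an assembler gene name, stacked for each of the 16 libraries, with Cluster-3823.53917 in purple and its linked cluster in green. The green cluster makes up most of the pair in andalusicum, between 87.7% and 90.1%, and the purple one most of it in molle, where the green share lies between 9.44% and 17.8%.

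The second class, clusters with no counts at all in a subspecies, held 287 clusters at 0 in all molle libraries and 138 at 0 in all andalusicum libraries. Of these, 222 and 108 passed the edgeR threshold, and the share called over both, 77.6%, follows from the limit on low counts. Over the 4 libraries of a side, a count of 0 allows up to 0.0251 CPM in andalusicum and 0.0244 CPM in molle. Most of these clusters were low: those found in andalusicum had a median of 2.28 CPM there, with 27 over 10 CPM and 45 under 1 CPM, and those found in molle had a median of 2.0 CPM, with 9 over 10 CPM and 23 under 1 CPM. The set found in andalusicum summed to 1241 ± 121 CPM there and the set found in molle to 496 ± 66.8 CPM there (SD, n = 4 each).

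Their transcripts were shorter than most. Where a length is given, the median was 877 nt over 105 clusters at 0 in molle and 830 nt over 59 clusters at 0 in andalusicum, against 1399 nt over 12467 tested clusters with counts on both sides. Levels varied widely between libraries of the subspecies that had them. The highest library exceeded the lowest by a median of 3.94-fold in clusters at 0 in molle and 3.72-fold in clusters at 0 in andalusicum, and by more than 10-fold in 37 and 15 clusters. The class borders on larger sets of less regular clusters: 549 clusters were at 0 in molle with 10 counts in 3 of the 4 andalusicum libraries, and 264 were at 0 in andalusicum with 10 counts in 3 of the 4 molle libraries.

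Cluster-3823.41664 had the highest mean among the clusters at 0 in molle. It was at 64.5, 45.4, 96.1 and 75.3 CPM in andalusicum, 8321 counts in all, against 0 in each molle library. Against a floor of 3 counts over the 4 molle libraries its andalusicum mean was at least 2885-fold higher. This bound and those below are taken from means and leave out the spread between libraries. The absence belonged to molle, since marifolium averaged 108 ± 40.1 CPM and origanifolium 47.9 ± 8.75 CPM (SD, n = 4 each), with no library under 39.4 CPM. The other 4 of the 5 highest showed other patterns. The second was at 55.1, 80.5, 7.20 and 32.0 CPM in andalusicum, with a mean at least 1793-fold over the molle floor, and had 0 counts in all 12 other libraries. The third was uneven, at 17.1, 65.6, 54.2 and 2.69 CPM in andalusicum. The fourth and the fifth were even there, at 28.4, 29.2, 30.6 and 44.5 CPM and at 24.6, 24.2, 37.8 and 26.9 CPM. The fourth was also found in 3 marifolium libraries at 3.25 to 14.4 CPM and in 1 origanifolium library, and the fifth in 2 origanifolium libraries at 7.0 and 7.87 CPM.

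Cluster-3823.16627, with a transcript of 2285 nt, had the highest mean among the clusters at 0 in andalusicum. It had 0 counts in each andalusicum library, against 33.0, 24.7, 21.0 and 49.9 CPM in molle, 3924 counts in all. Measured from the floor it was at least 1281-fold lower in andalusicum. Marifolium, at 18.6, 0.629, 31.7 and 18.4 CPM, and origanifolium, at 21.9, 20.1, 8.97 and 9.46 CPM, both had it, so that andalusicum alone lacked counts. The second was irregular in molle, at 7.47, 63.5, 0.751 and 48.7 CPM. The third was even, at 20.6, 22.0, 26.3 and 17.2 CPM in molle, and at least 857-fold lower in andalusicum, with 0 counts in marifolium and 2 in origanifolium. The fourth and the fifth spread again, at 36.5, 30.1, 1.56 and 10.5 CPM and at 0.938, 6.88, 18.9 and 44.1 CPM in molle. The fourth was found in all 8 marifolium and origanifolium libraries, between 1.30 and 14.5 CPM.

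**Figure D4:**
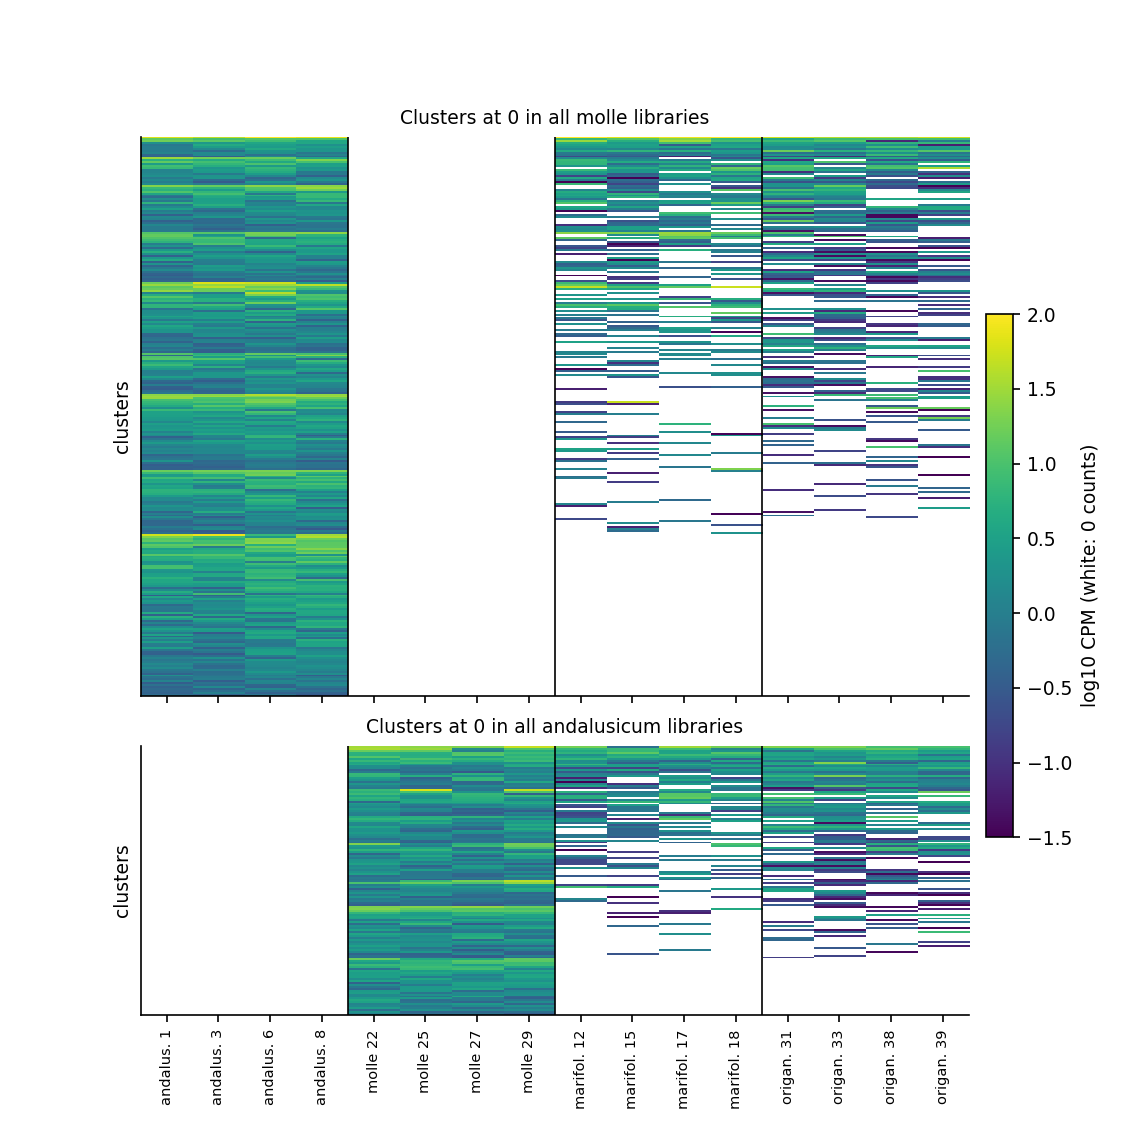
Level of the 287 clusters at 0 in all molle libraries (top) and the 138 at 0 in all andalusicum libraries (bottom) in the 16 libraries, as log10 CPM in colour, with white for 0 counts and 1 row for each cluster. Rows are ordered by the number of marifolium and origanifolium libraries with counts; 83 clusters in the top panel and 29 in the bottom panel are white in all 8.

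The other subspecies show how far the absence is shared. A cluster is said to be present in a subspecies with at least 10 counts in all 4 libraries and absent with 0 in all 4. Of the 287 clusters at 0 in molle, 83 were absent from marifolium and origanifolium too, or 28.9%, and 8 were present in both. With each subspecies taken by itself, 28 were present in marifolium and 128 absent, and 16 were present in origanifolium and 119 absent. Of the 138 clusters at 0 in andalusicum, 29 were absent from both others, or 21.0%, and 11 were present in both. In marifolium 15 of them were present and 54 absent, and in origanifolium 28 were present and 33 absent. The clusters at 0 in molle summed to 403 ± 69.9 CPM in marifolium and 261 ± 58 CPM in origanifolium, and those at 0 in andalusicum to 129 ± 38.9 CPM and 155 ± 16.7 CPM. In 92 clusters at 0 in molle and 49 at 0 in andalusicum, both others were neither present nor absent in this sense, with counts in some libraries only or low counts in all.

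For the called clusters with counts on both sides, the mean of each other subspecies was placed nearer to andalusicum or nearer to molle on the log2 scale. Of the 170 clusters higher in andalusicum, marifolium and origanifolium were both nearer to molle in 100, or 58.8%, both nearer to andalusicum in 30, and on different sides in 40. Over the 5555 tested clusters that were at least 2-fold higher in andalusicum, whether called or not, both were nearer to molle in 46.5%. Of the 130 clusters lower in andalusicum, both were nearer to andalusicum in 63, or 48.5%, both nearer to molle in 37, and on different sides in 30. Over the 4595 clusters at least 2-fold lower in andalusicum, both were nearer to andalusicum in 40.3%. In either direction the most frequent case was that the others resembled the subspecies with the lower level. The choice of clusters by a high level in one subspecies bears on these shares, and they are given with no test.

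Presence and absence can also be counted between single codes, with at least 10 counts in both libraries of a code and 0 in both of another. These counts are out of all 100462 clusters, tested or not. From andal260 to molle254 and molle256 there were 1928 and 1797 such clusters, and from andal261 to the same codes 1735 and 1708. In the other direction, 815 clusters were present in molle254 and 901 in molle256 but absent from andal260, and 1295 and 1415 were absent from andal261. Codes of the same subspecies differed too. In all, 1379 clusters were present in andal260 and absent from andal261, 717 the other way round, 557 were present in molle254 and absent from molle256, and 685 the other way round. The count from andal260 to andal261 thus exceeded 3 of the 4 counts from molle codes to andalusicum codes. The number of clusters with at least 1 count went with it, at 54213 and 54634 in andal260 and 44538 and 48864 in andal261, against 49877, 48058, 48818 and 48045 in molle 22, 25, 27 and 29, and its part in the counts was not tested.

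**Figure D5:**
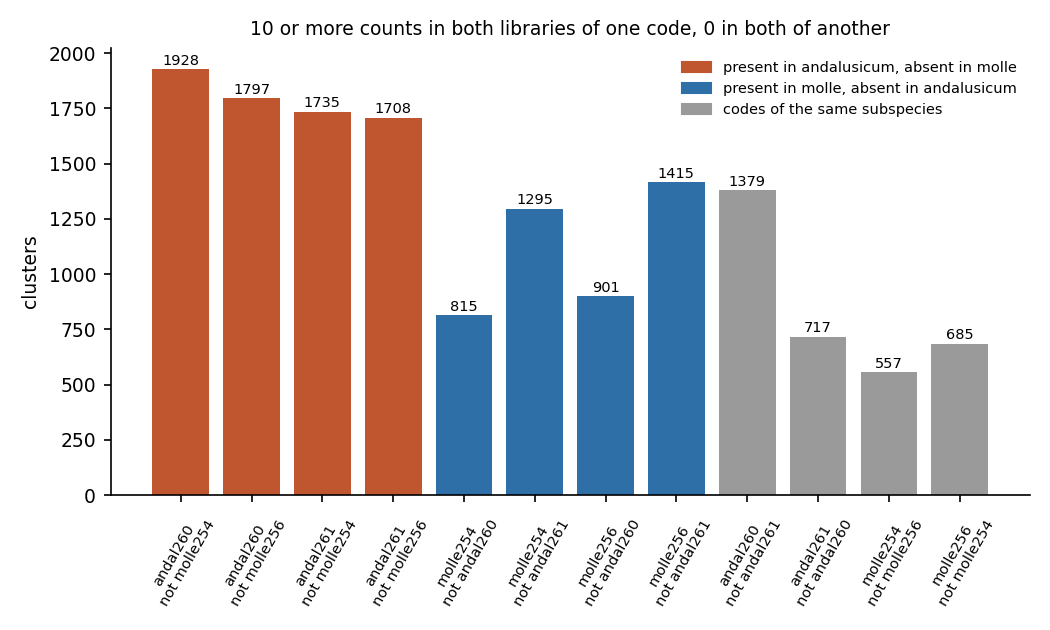
Number of clusters, out of all 100462, tested or not, with at least 10 counts in both libraries of one code and 0 in both of another, for each ordered pair of codes. Orange bars, from 1708 to 1928, are present in an andalusicum code and absent from a molle code, blue bars, from 815 to 1415, the reverse, and grey bars, from 557 to 1379, compare codes of the same subspecies.

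Over all tested clusters, every pair of libraries of a subspecies was more alike than any pair between andalusicum and molle, and libraries of the same code were on average closer than those of different codes. The root mean square difference of log2 CPM, here scaled by TMM factors, averaged 1.72 for the same code in andalusicum and 1.69 in molle. Each average covers 2 pairs of libraries. Between the codes of a subspecies it averaged 1.90 in andalusicum and 1.82 in molle, over 4 pairs each. Andalusicum 6 and 8, which share a code, were an exception: at 1.87 they were further apart than andalusicum 3 and 8, of different codes, at 1.83. Between andalusicum and molle it averaged 2.14 ± 0.0881 (SD over 16 pairs, which share libraries), and its lowest value, 2.01, was above the highest between codes of a subspecies, 1.97.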

How the data were processed

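Poly-A RNA of adult leaves was sequenced in 16 libraries, of which the 8 of andalusicum and molle were compared. The authors deposited raw counts, whole numbers for each cluster of assembled transcripts and library, and a list that pairs transcripts with clusters. FastQC was used, per the submitters' processing notes. Not given in the sources used here are the assembler, clustering tool, aligner, counter and strand setting. Reads shared between linked clusters, gene copies or alleles may have been split, and antisense transcripts cannot be told apart. Of the clusters, 96.8% hold 1 transcript.

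Columns were matched to libraries by title, and 0 columns were left unmatched. Libraries of a subspecies differed beyond sampling noise, with chi-square per degree of freedom of 104 to 138. Clusters with at least 10 counts in at least 4 of the 8 libraries went into edgeR 4.0.16 under R 4.3.3 (normalisation factors by TMM, 0.906 to 1.10; quasi-likelihood F-test; Benjamini-Hochberg adjustment over all 35414; threshold 0.05; no covariate). Fold changes are andalusicum over molle, and their standard errors were derived from the F statistic. The biological coefficient of variation was 81.7% (common dispersion 0.668). CPM values divide by the library total without TMM, except in the differences between libraries, which use TMM-scaled log2 CPM with a prior count added. A floor of 3 counts over 4 libraries bounds folds of the other side's mean against 0, for counting error only. Ratios with 1 to 3 counts have exact 95% intervals (scipy 1.17.1) on summed counts, which leave out the spread between libraries. The script was tested on simulated counts.

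Clusters described singly met the criterion in the text, with at 0 on a side the 5 highest means in each direction. Identifiers are printed for the smallest p and, at 0 on a side, the highest mean. The members, criteria and alternatives were chosen with earlier results of these data known. Alternatives were other scalings, filters and tools (DESeq2 1.42.0, limma 3.58.1), the codes as a block (correlation 0.0518) or summed, all 16 libraries, clusters summed by assembler gene name, libraries thinned to 26908113 counts, and each library left out.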

Additional observations from a re-analysis of the deposited data

Results flagged for a closer look

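In 5 of 72 groups of 4 libraries examined, over the clusters described singly, 1 library stood far from the other 3. Chance flags about 1 in 20 such groups. Cluster-3823.44141 was at 3.38 CPM in origanifolium 31 and between 0.531 and 0.874 CPM in the other origanifolium libraries. Cluster-3823.53917 was at 23.0 CPM in origanifolium 39 and between 5.06 and 7.35 CPM in the others. The cluster with the second smallest p among those lower in andalusicum was at 29.9 CPM in molle 22 and between 16.4 and 17.9 CPM in the other molle libraries. The cluster with the fourth highest mean among those at 0 in molle was at 44.5 CPM in andalusicum 8 and between 28.4 and 30.6 CPM in the other andalusicum libraries. The cluster with the second highest mean among those at 0 in andalusicum was at 4.14 CPM in origanifolium 38 and between 0.123 and 0.281 CPM in the others. Of these, the groups in andalusicum and molle belong to the comparison, and in both the library that stands apart lies on the side where the cluster was higher.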

How the results depend on the processing

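Of 630 calls over all clusters and 300 with counts on both sides, DESeq2 gave 2292 and 1869, no filter on low counts 346 and 167, a mean of at least 1 CPM 261 and 142, and code sums 0 and 0 (3432 and 3007 at an unadjusted p under 0.05). All 16 libraries in the fit gave 354 and 225. Limma voom, with a random block for the code, gave 437 and 194. With clusters at 0 on a side left out of the fit, or only of the adjustment, 97 with counts on both sides were called. Leaving out 1 library gave 152 to 265 and 83 to 153. RLE factors, library totals, a robust fit, filterByExpr and summing by assembler gene name kept both counts within 1.5 times, at 509 to 678 and 246 to 333. Library totals moved the median log2 change of all tested clusters to 0.11, against 0.02 with TMM. The 425 clusters at 0 on a side became 101 with a minimum of 50 counts, and between 386 and 621 in the other settings. Over 28 clusters described singly and 494 settings, 71 lost the call, 27 of them with code sums, 3 gained it and 0 reversed, and 19 clusters were called in every one of those settings but code sums. These settings leave out the fit on a mean of at least 1 CPM, where 4 more calls were lost, 75 in all. In all, 37 of the 300 clusters, 20 higher and 17 lower, were called in each of 15 alternatives. Those 15 leave out the code sums, the sums by assembler gene name and the other filters on low counts. Of the 37 clusters, 18 had at least 10 counts in all 8 libraries. The others were short of 10 counts in at least 1 library, and their calls are a description. This also applies to those of the 19 clusters that were at 0 on a side or short of 10 counts. No paired analysis was possible because the library numbers are not shared between the subspecies. Depth limits clusters under about 0.111 CPM in a library. Lost calls were not traced to a cause.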

Other observations

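A second pair of clusters under a shared assembler gene name had counts in opposite subspecies only. The first was at 1.94, 2.61, 3.53 and 0.459 CPM in andalusicum and at 0 in molle and in all marifolium and origanifolium libraries. The other was at 0 in andalusicum and at 1.32, 1.38, 1.35 and 4.35 CPM in molle, and in origanifolium between 1.25 and 2.90 CPM. Their sum was 2.13 ± 1.29 CPM in andalusicum and 2.1 ± 1.5 CPM in molle (SD, n = 4 each). The pair was picked out after its values were seen.

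Among the 83923 clusters with at least 1 count in the 8 libraries, tested or not, some had over 95% of those counts in a single library. No minimum was set, so a cluster with 1 count in all is included. Such clusters numbered 2142, 2462, 2103 and 2739 in andalusicum 1, 3, 6 and 8, and 2078, 1621, 1781 and 1754 in molle 22, 25, 27 and 29. They held between 0.294% and 0.620% of the counts in 7 of these libraries and 1.58% in andalusicum 8.

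Linked clusters were present in all 4 libraries of the side at 0 for 9 of the 287 clusters at 0 in molle and for 5 of the 138 at 0 in andalusicum. Of these classes, 52 and 17 clusters, or 18.1% and 12.3%, had a linked cluster at all.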
